A study of Mus musculus with 20 samples.

Results

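The genes described here are 10 members of the cellular response to low oxygen: the subunits Hif1a and Hif3a of the hypoxia-inducible factors (HIF), the oxygen sensors Egln1 and Egln3, and the responsive genes P4ha1, Bnip3, Vegfa, Ankrd37, Ndrg1 and Ddit4. They were chosen by gene symbol from a table of 26440 genes, and each symbol had 1 row. Hearts of C57BL/6N mice labelled MyHC-Creld1 KO, in which Creld1 is deleted in the myocardium, were compared with wild-type hearts at postnatal day 3 (P3) and at the embryonic stage E13.5. Ventricles and atria of 3 knockout and 3 wild-type P3 pups from 3 litters gave 12 libraries, and whole hearts of 4 knockout and 4 wild-type E13.5 embryos from 3 litters gave 8. Each library came from 1 animal, and each pup gave both tissues. The knockout is tied to heart muscle cells by its myosin heavy chain driver, so that fibroblasts, endothelial cells and blood in the same tissue keep the gene. These are bulk libraries, in which fewer cells of a type and less RNA per cell cannot be told apart.

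HIF is a transcription factor made of an oxygen-labile alpha subunit and a stable partner, ARNT. In oxygenated cells, prolyl hydroxylases of the EGLN family mark the alpha subunit for capture by the von Hippel-Lindau protein and for degradation. When oxygen falls, the alpha subunit escapes and binds a short DNA element with the core letters ACGTG or GCGTG near its target genes. The control of HIF1A is thus mostly on the protein, and its mRNA need not follow the activity of the pathway. The mammalian heart forms in the low oxygen of the uterus, with much glycolysis, and turns to the oxidation of fatty acids after birth.

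The values are a normalized signal on a linear scale, which the authors deposited. Estimated totals lay between 5138351 and 20669362 counts a library, with 18357 to 23457 genes detected. Creld1 itself had 19.9 to 59.3 in knockout and 59.7 to 130 in wild-type ventricles, 23.1 to 82.4 in knockout and 21.6 to 146 in wild-type atria, and 4.64 to 70.9 in knockout and 34.0 to 92.2 in wild-type E13.5 hearts, so the genotypes overlapped in atria and at E13.5. Myl2, which marks ventricular muscle, had 43106 to 51807 in the 6 ventricular libraries, against 21.7 to 97.2 in 5 of the atrial ones and 9242 in the atria of wild-type pup 2. The third atrial pair, which is knockout pup 3 and wild-type pup 3 of 1 litter, stood apart from the other atria. Mitochondrially encoded genes took 3.55% of its knockout library and 10.4% of its wild-type library, against 22.6 to 31.3% of the other 4 atrial libraries. Of 18125 genes tested, 8223, or 45.4%, had both libraries of that pair outside the range of the other 4.

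Per kilobase of exon, and averaged over the 20 libraries, the level was highest for Bnip3 at 259 and Hif1a at 250.8 units, followed by Egln1 and P4ha1 at 114 each and Vegfa at 74.2. Lower levels were found for Ankrd37 at 35.0, Egln3 at 21.1, Ddit4 at 17.1, Ndrg1 at 10.6 and Hif3a at 3.34 units per kilobase. Of neighbours in this order, Bnip3 and Hif1a, Egln1 and P4ha1, Egln3 and Ddit4, and Ddit4 and Ndrg1 differed by less than the SD of either gene over the libraries. All 10 genes passed the filter on low values, a signal of at least 10 in at least 3 libraries.

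Promoter sequences show where the HIF core letters lie near the starts of the members that the results turn on. The RefSeq promoter table of build GRCm38.p6, which is mm10, held 10 promoters of 300 bases for 9 of the 10 members, from 250 bases before to 50 after a start. Ndrg1 was not matched. ACGTG and GCGTG were searched on both strands, so that CACGT and CACGC also count, and overlapping letters such as CACGTG count on each strand. A match was found in 9 of the 10 promoters, against 43.8% of 32841 mouse promoters of the same length. At least 3 matches were found in 4 of them, those of Bnip3, Ankrd37, Hif1a and P4ha1, against 8.93% of all promoters. The promoter at the upstream start of Vegfa had 0 matches, and one at an internal start had 2. The promoters of Hif1a and Ankrd37 also lie inside the gene spans given below, downstream of their outermost ends. A match is a string of letters and not a measured binding site. Both strings hold the letters CG, and the GC content, 54.7 to 86% in the 10 promoters, was not matched in these comparisons. The matches are in capitals below, each sequence runs 5′ to 3′ on the strand of its gene, and the regions are chr10:59323046-59323345 on the plus strand for P4ha1, chr7:138909457-138909756 on the minus strand for Bnip3, chr17:46032328-46032627 on the minus strand for Vegfa, chr12:73907617-73907916 on the plus strand for Hif1a and chr8:45999801-46000100 on the minus strand for Ankrd37.
P4ha1: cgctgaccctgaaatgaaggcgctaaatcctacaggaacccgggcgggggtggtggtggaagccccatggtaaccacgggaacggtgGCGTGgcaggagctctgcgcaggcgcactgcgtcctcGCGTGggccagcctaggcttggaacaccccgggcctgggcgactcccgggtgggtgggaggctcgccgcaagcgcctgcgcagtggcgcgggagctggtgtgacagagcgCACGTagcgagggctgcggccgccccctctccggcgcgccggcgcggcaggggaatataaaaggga
Bnip3: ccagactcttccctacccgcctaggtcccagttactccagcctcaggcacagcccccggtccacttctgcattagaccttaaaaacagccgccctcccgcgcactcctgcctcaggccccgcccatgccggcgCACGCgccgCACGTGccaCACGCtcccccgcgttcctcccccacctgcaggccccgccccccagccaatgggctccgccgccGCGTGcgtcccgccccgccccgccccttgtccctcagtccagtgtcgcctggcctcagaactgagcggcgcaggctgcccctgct
Vegfa: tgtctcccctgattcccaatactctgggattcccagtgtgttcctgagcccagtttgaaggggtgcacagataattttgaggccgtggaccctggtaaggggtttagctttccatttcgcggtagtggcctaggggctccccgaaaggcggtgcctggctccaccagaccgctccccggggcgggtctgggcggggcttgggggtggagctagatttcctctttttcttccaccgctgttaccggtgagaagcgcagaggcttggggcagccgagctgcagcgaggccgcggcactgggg
Hif1a: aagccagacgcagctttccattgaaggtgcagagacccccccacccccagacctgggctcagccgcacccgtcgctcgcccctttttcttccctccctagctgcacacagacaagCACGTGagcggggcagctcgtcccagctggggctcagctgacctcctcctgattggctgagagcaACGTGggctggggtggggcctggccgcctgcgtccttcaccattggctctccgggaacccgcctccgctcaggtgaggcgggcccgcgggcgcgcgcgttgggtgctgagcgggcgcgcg
Ankrd37: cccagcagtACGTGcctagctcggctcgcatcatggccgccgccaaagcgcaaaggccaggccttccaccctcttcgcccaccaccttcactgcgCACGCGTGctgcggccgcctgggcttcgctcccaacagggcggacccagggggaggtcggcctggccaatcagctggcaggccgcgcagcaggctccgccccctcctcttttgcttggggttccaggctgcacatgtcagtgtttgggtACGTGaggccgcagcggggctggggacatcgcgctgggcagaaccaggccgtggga

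The first question was whether the loss of Creld1 in the myocardium changed these genes. In no tissue did any of the 10 pass the threshold of a limma adjusted p under 0.05, where p is adjusted by the Benjamini-Hochberg method over all 18125 genes. Few genes of any kind did: the percentages called were 0 in P3 ventricles, 0.0276 in P3 atria, which is 4 genes higher and 1 lower, and 0 in E13.5 hearts, with 707, 964 and 747 genes at an unadjusted p under 0.05. Among the members, P4ha1 in P3 atria and Ankrd37 in E13.5 hearts had an unadjusted p under 0.05, and none did in ventricles. The groups did not overlap for Bnip3 in ventricles and for P4ha1 in atria, and they overlapped for the other members in each tissue. Groups that do not overlap were found for 10.5% of all genes in ventricles (4.97% with the knockout higher), 7.91% in atria (3.92% with the knockout higher) and 2.54% at E13.5. The difference of the knockout effect between tissues was also not called for any member: limma called 0% of genes between ventricles and atria, 0% between ventricles and E13.5 hearts and 0.00552%, which is 1 gene, between atria and E13.5 hearts, with 469, 729 and 904 genes at an unadjusted p under 0.05.

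**Figure D1:**
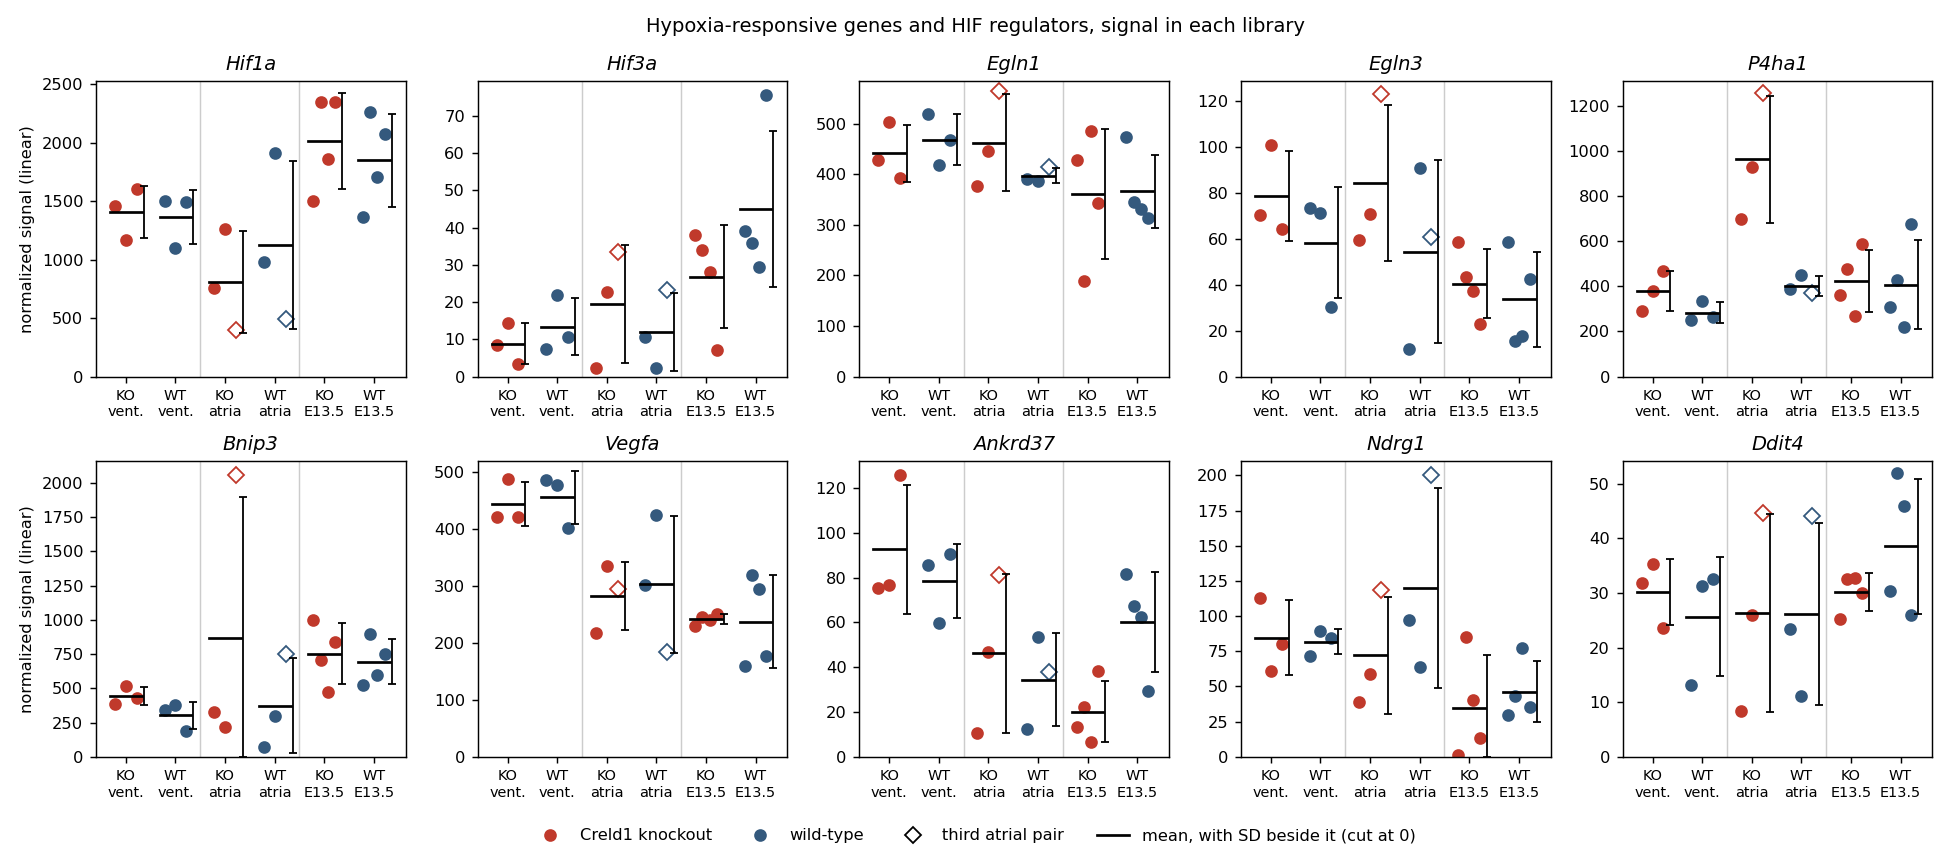
Normalized signal (linear vertical axis) of each of the 10 genes in each of 20 libraries, grouped on the horizontal axis by genotype within P3 ventricles, P3 atria and E13.5 hearts, with the mean as a line and the SD beside it. The open diamonds are the third atrial pair, which is lowest of all libraries for Hif1a and holds the highest value for Bnip3, P4ha1, Egln1, Egln3 and Ndrg1.

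**Figure D2:**
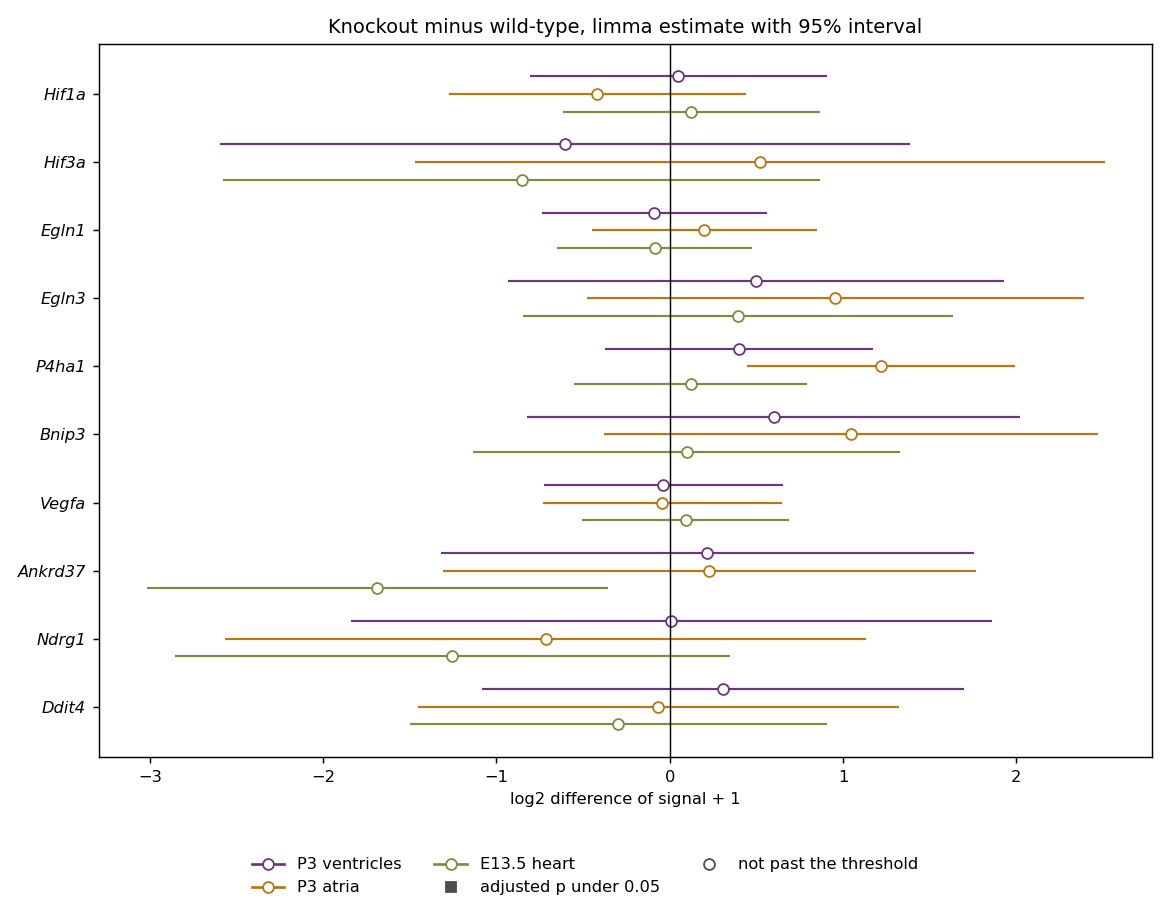
Log2 difference of signal + 1, knockout minus wild-type (horizontal axis), for the 10 genes (vertical axis) in 3 tissues, as limma estimates with 95% intervals that are not adjusted for the number of genes. All symbols are open, since no difference passed the threshold, and the intervals of P4ha1 in atria and of Ankrd37 at E13.5 do not reach 0.

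The second question was how the members stand between the stages and between the chambers. Of the 10 members, Vegfa was higher in P3 ventricles than in E13.5 hearts, where limma called 11% of genes, 1197 higher (6.6%) and 799 lower. Hif1a was lower in P3 atria than in E13.5 hearts, where 11.6% were called, 1204 higher and 902 lower (4.98%). None was called between ventricles and atria of the same pups, where 1.45% of genes were called, 108 higher and 154 lower, and 2760 had an unadjusted p under 0.05. A share of 1 in 10 is close to the share of all genes called between stages. Stage also differs with dissection, whole heart against separated chambers, and with preparation: all P3 libraries and 1 E13.5 pair were prepared in 2018 and the other 3 E13.5 pairs in 2016. These cannot be told apart.

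**Figure D3:**
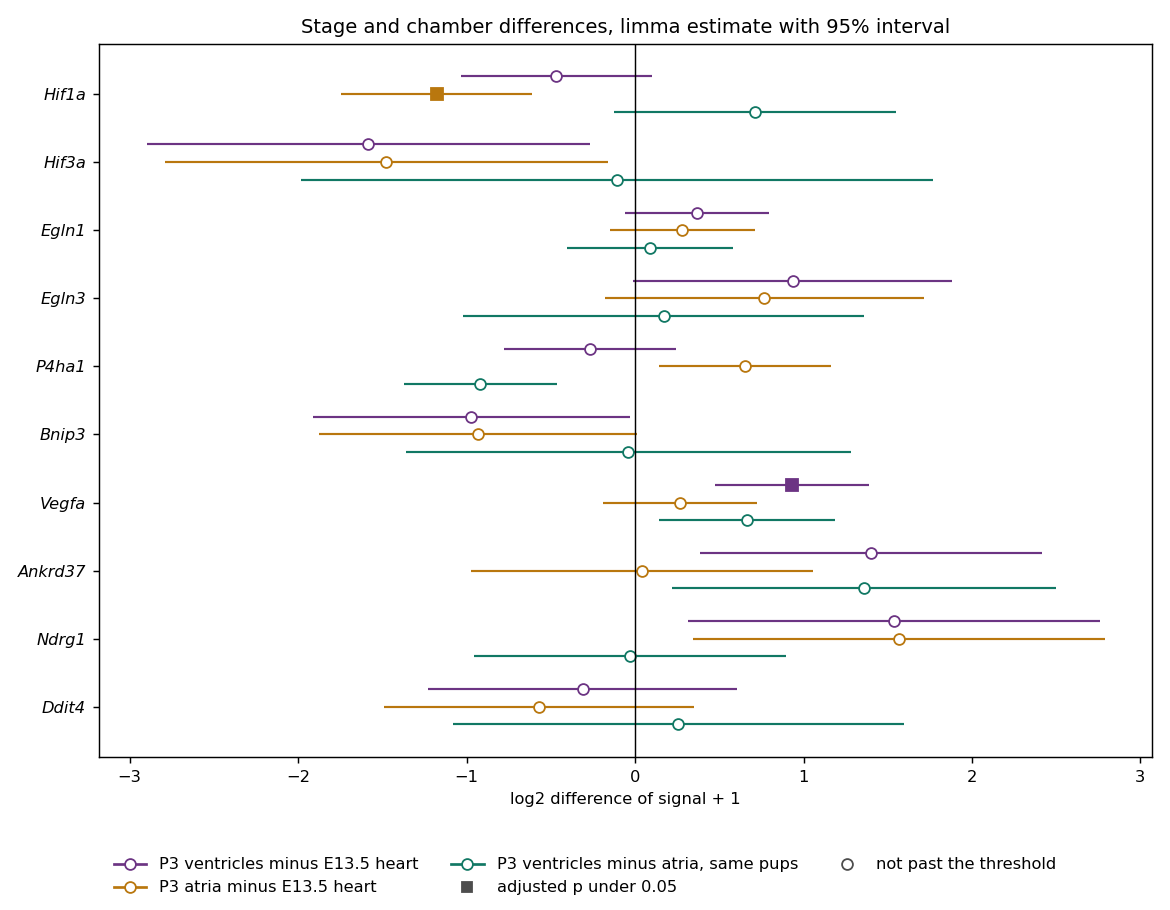
Log2 difference of signal + 1 (horizontal axis) for the 10 genes (vertical axis) between P3 ventricles and E13.5 hearts, between P3 atria and E13.5 hearts, and between ventricles and atria of the same pups, with 95% intervals that are not adjusted for the number of genes. The filled squares, Vegfa in ventricles and Hif1a in atria, passed the threshold.

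Hif1a encodes the main oxygen-regulated alpha subunit and spans 73901375 to 73947530 of chromosome 12 (mm10, plus strand, at most 15 exons in a transcript). Its signal was 1456, 1165 and 1604 in the ventricles of knockout pups 1 to 3, against 1500, 1097 and 1490 in those of wild-type pups 1 to 3. In atria it was 755, 1265 and 399 in knockout pups, against 976, 1909 and 488 in wild-type pups. In E13.5 hearts it was 1504, 2344, 1861 and 2348 in knockout embryos, against 1366, 2260, 1703 and 2076 in wild-type embryos. The genotypes overlapped in each tissue, and the third atrial pair was the lowest of all 20 libraries. Paired by sample number, the E13.5 knockout lay above its wild-type littermate in 4 of 4 pairs and the atrial knockout below it in 3 of 3. Embryonic pairs 2 and 3 share 1 litter, in which knockout 3, with 1861, lay below wild-type 2, with 2260, so the embryonic run rests on the numbering. The share of all genes with such runs was not counted. The atrial difference was -0.42 on the log2 scale (SE 0.41, n = 3 against 3, limma adjusted p = 1). It was 0.07 without both libraries of wild-type pup 2 and 0.01 without the atrial library of knockout pup 3. Both of these fits kept the littermate, so the litters were no longer balanced between genotypes. Within atrial pairs 1 to 3 the log2 ratios were -0.37, -0.59 and -0.29. Without both atrial libraries of pair 3 the difference was -0.48. With the litter pairs as a replicate block over 20 libraries, the SE was 0.16 and the limma adjusted p 0.437. In the other tissues the difference was smaller than its SE.

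By stage, Hif1a averaged 966 ± 561 in P3 atria and 1933 ± 384 in E13.5 hearts (SD, n = 6 and 8). It fell in atria by 1.18 on the log2 scale (SE 0.27, limma adjusted p = 0.00686). Without the third atrial pair the log2 difference was -0.72 and the adjusted p 0.0324, and with only the libraries prepared in 2018 it was -1.40 and 0.185. The groups overlapped, since the atria of wild-type pup 2, with 1909, lay within the embryonic range of 1366 to 2348. In P3 ventricles the mean was 1386 ± 204 (SD, n = 6), with a log2 difference from E13.5 hearts of -0.47 (SE 0.27, limma adjusted p = 0.329). When each library was rescaled to the same sum, which moved the median of all genes from -0.02 to -0.51 in that comparison, this difference was -1.004 and passed the threshold (limma adjusted p = 0.0012). Ventricles were above atria in 4 of 6 pups, with a log2 difference of 0.71 (SE 0.37, limma adjusted p = 0.402), of 0.16 without the third pair, and of 0.13 with libraries rescaled to the same sum.

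Hif3a, at 17031507 to 17062427 of chromosome 7 (minus strand), encodes an alpha subunit with splice forms that can inhibit the others. It was the member with the fewest reads. Its signal was 8.505, 14.4 and 3.44 in knockout ventricles, against 7.44, 22.04 and 10.7 in wild-type ventricles. The atria had 2.22, 22.6 and 33.4 in knockout and 10.5, 2.19 and 23.2 in wild-type pups, where the lowest value is an estimated 1 read. The E13.5 hearts had 38.1, 34.1, 28.1 and 7.04 in knockout embryos, against 39.1, 35.9, 29.4 and 75.7 in wild-type embryos. The first 3 embryonic pairs were nearly level, and the embryonic log2 difference of -0.86 (SE 0.83, limma adjusted p = 1) became -0.33 without the fourth knockout embryo. The average was 11.1 ± 6.47 in P3 ventricles, 15.7 ± 12.7 in P3 atria and 35.9 ± 19.03 in E13.5 hearts (SD, n = 6, 6 and 8). Neither stage difference passed the threshold: -1.58 in ventricles (SE 0.63, limma adjusted p = 0.121) and -1.48 in atria (SE 0.63, limma adjusted p = 0.14). With libraries rescaled to the same sum the ventricular one was -2.07 (limma adjusted p = 0.0402).

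The third alpha subunit, Epas1 (HIF-2 alpha), which is prominent in endothelium, ran the other way by stage. It averaged 908 ± 118 in knockout and 1143 ± 139 in wild-type ventricles, 396 ± 70.6 in knockout and 591 ± 112 in wild-type atria, and 260 ± 85.3 in knockout and 382 ± 24.8 in wild-type E13.5 hearts (SD, n = 3, 3, 3, 3, 4 and 4). It rose in P3 ventricles by 1.72 on the log2 scale (limma adjusted p = 3.53e-06) and in P3 atria by 0.64 (limma adjusted p = 0.0363) relative to E13.5 hearts, and it was higher in ventricles than in atria by 1.08 (limma adjusted p = 0.0475). The first call held in 22 of 22 alternative settings, the second in 9 of 22 and the third in 2 of 20. Its mean was lower in knockouts in all 3 tissues, by log2 differences of -0.33, -0.58 and -0.62 in ventricles, atria and E13.5 hearts, and none was called (limma adjusted p = 1, 0.963 and 1). At E13.5 the difference was -0.36 without the second knockout embryo. The genotypes did not overlap at E13.5, from 144 to 342 in knockout and 362 to 414 in wild-type embryos. They also did not overlap in atria, from 314.5 to 440 in knockout and 504 to 717 in wild-type pups, and they overlapped in ventricles. Groups that do not overlap were found for 2.54% of all genes at E13.5 and 7.91% in atria. The summed signal of 10 endothelial markers was 3185 to 3737 in knockout and 4152 to 4432 in wild-type ventricles, which did not overlap, and 9 of the 10 markers had a negative difference there, with 0 called. The sum was 4091 to 5449 in knockout and 3948 to 5023 in wild-type atria, and 2620 to 3057 in knockout and 2592 to 2824 in wild-type E13.5 hearts. Its part in the differences of Epas1 by genotype, stage and chamber was not tested. Of the 5 HIF subunits tested, 1 was called higher and 0 lower in P3 ventricles, and 1 higher and 1 lower in P3 atria, relative to E13.5 hearts. Neither Arnt nor Arnt2, the partner subunits, was called in any of these comparisons.

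Egln1 encodes PHD2, the main prolyl hydroxylase that senses oxygen, and spans 124908587 to 124949324 of chromosome 8 (minus strand). Its signal was 429, 504 and 391.9 in knockout ventricles, against 519, 419 and 468 in wild-type ventricles. Atrial values were 376, 446 and 566 in knockout and 390, 387 and 415 in wild-type pups. At E13.5 the signal was 428, 188, 486 and 343 in knockout and 473, 346, 332 and 313 in wild-type embryos. It was the steadiest member: apart from the second knockout embryo, 19 libraries lay between 313 and 566. The 3 knockout effects were smaller than their SE, with 95% intervals between -0.74 and 0.85 on the log2 scale. The stage differences were 0.37 in ventricles (SE 0.21, limma adjusted p = 0.307) and 0.28 in atria (SE 0.21, limma adjusted p = 0.424), and the ventricular one was -0.17 with libraries rescaled to the same sum.

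Egln3, at 54178981 to 54203860 of chromosome 12 (minus strand), encodes PHD3, a prolyl hydroxylase that HIF itself induces. Its signal was 70.6, 101 and 64.4 in knockout ventricles, against 73.4, 71.4 and 30.5 in wild-type ventricles. In atria it was 59.5, 70.8 and 123 in knockout and 12.1, 90.7 and 60.7 in wild-type pups. In E13.5 hearts it was 58.8, 43.4, 37.1 and 22.8 in knockout and 58.6, 15.6, 17.8 and 42.4 in wild-type embryos. Means were higher in the knockout in all 3 tissues and the groups overlapped in each. The atrial log2 difference was 0.96 (SE 0.69, limma adjusted p = 1). It fell to 0.11 without the first wild-type atrial library, which held an estimated 17 reads. The other effects were below their SE. The average was 68.5 ± 22.6 in ventricles, 69.5 ± 36.9 in atria and 37.1 ± 17.1 in E13.5 hearts (SD, n = 6, 6 and 8), with log2 differences by stage of 0.94 in ventricles (SE 0.46, limma adjusted p = 0.222) and 0.77 in atria (SE 0.46, limma adjusted p = 0.305).

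Among 18 other regulators of HIF, which cover its degradation, its coactivators and its chaperone, limma called 0 higher and 2 lower in P3 ventricles than in E13.5 hearts, with a median log2 difference of -0.14 beside -0.02 over all genes. The 2 were Rack1, a scaffold that competes with the chaperone for HIF1A, at -0.68 (limma adjusted p = 0.0312), and the chaperone Hsp90aa1 at -0.76 (limma adjusted p = 0.0325). These calls held in 14 of 22 alternatives for Rack1 and 11 of 22 for Hsp90aa1. In P3 atria it also called 0 higher and 2 lower, Hsp90aa1 at -1.20 (limma adjusted p = 0.00131) and Rbx1, a ring subunit of the ubiquitin ligase, at -0.64 (limma adjusted p = 0.0256), with a median of -0.20 beside 0.07. None was called between chambers or for the knockout in any tissue. The third prolyl hydroxylase Egln2, the asparagine hydroxylase Hif1an and the ligase subunit Vhl were not called in any of the 6 comparisons.

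P4ha1 encodes a catalytic subunit of the hydroxylase that modifies proline in collagen, and spans 59323296 to 59373304 of chromosome 10 (plus strand, at most 15 exons). In atria its signal was 701, 930 and 1258 in knockout pups 1 to 3, against 387, 452 and 369 in wild-type pups 1 to 3. All 3 knockout atria lay above all 3 wild-type atria, and above every ventricular and embryonic library. In ventricles it was 289, 381 and 467 in knockout pups, against 251, 336 and 265 in wild-type pups. The E13.5 hearts had 362, 477, 268 and 588 in knockout embryos, against 307, 429, 219 and 675 in wild-type embryos. Paired by sample number, the knockout was above its littermate in 3 of 3 ventricular, 3 of 3 atrial and 3 of 4 embryonic pairs. The ventricular and atrial pairs are the same pups. Embryonic pairs 2 and 3 share 1 litter, in which knockout 3, with 268, lay below wild-type 2, with 429.

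The atrial mean of P4ha1 was 963 ± 280 in knockout and 403 ± 43.6 in wild-type pups (SD, n = 3 each), a log2 difference of 1.22 (SE 0.37). It had an unadjusted p of 0.00363 and a limma adjusted p of 0.572. With the litter pairs as a replicate block in a fit over 20 libraries, which called 20 genes higher and 10 lower or 0.166% of genes, the SE was 0.25 and the limma adjusted p 0.0937. Without the third pair the log2 difference was 0.95 (SE 0.44, limma adjusted p = 0.611), so the call failed under each fit and the direction held. The ventricular difference was 0.40 (SE 0.37, limma adjusted p = 1) and the embryonic one was below its SE. The knockout effect in ventricles minus that in atria was -0.82 within pups (SE 0.40, limma adjusted p = 1). That in atria minus that in E13.5 hearts was 1.10 (SE 0.49, limma adjusted p = 0.977).

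Marker sums also differed between the genotypes in atria. The summed signal of 10 fibroblast markers, a cell type that makes much collagen, was 62053 to 64755 in knockout and 83123 to 89489 in wild-type atria. That of 10 erythroid markers was 31083 to 133134 in knockout and 15591 to 18828 in wild-type atria. In both the groups did not overlap, with fibroblast markers lower and erythroid markers higher in knockout atria, and 7 of 10 fibroblast and 1 of 9 tested erythroid markers had a negative difference, with 1 fibroblast marker called lower. None of these markers was at 0 in all atrial libraries of a genotype. Their part in the result was not tested.

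Between chambers P4ha1 was lower in the ventricle than in the atrium of the same pup in 6 of 6 pups. The same direction in 6 of 6 pups was found for 10.3% of genes, and a lower ventricle for 5.09%. The ratio of ventricles to atria was 0.413, 0.410 and 0.372 in knockout pups, against 0.648, 0.744 and 0.718 in wild-type pups. The log2 difference was -0.92 (SE 0.20, limma adjusted p = 0.0693), which missed the threshold. It passed with libraries rescaled to the same sum (-1.50, limma adjusted p = 0.029) and in the fit that ignores the pups (limma adjusted p = 0.0456). By stage it was 0.65 in atria (SE 0.25, limma adjusted p = 0.0922), -0.04 with only the libraries prepared in 2018, and 0.79 without the fourth wild-type embryo, where it passed (limma adjusted p = 0.0331). In ventricles it was -0.27 (SE 0.25, limma adjusted p = 0.587), and -0.80 with libraries rescaled to the same sum (limma adjusted p = 0.0448).

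Of 10 collagen prolyl and lysyl hydroxylase genes, P4ha1 included, 0 were called in knockout atria, with 8 positive differences and a median log2 difference of 0.69 beside 0 over all genes. After P4ha1, the smallest p values belonged to Plod2, which hydroxylates lysine in collagen telopeptides, at 0.90 (limma adjusted p = 0.851), and P3h1, a prolyl 3-hydroxylase, at 1.03 (limma adjusted p = 0.961). The difference of P3h1 was 0.53 without the third knockout atrial library and 1.69 without the third wild-type one. Without the third pair 7 were positive with a median of 0.75. Between chambers all 10 were negative, 0 were called, and the median was -0.80 beside -0.07 over all genes, and without the third pair 4 of 10 were positive with a median of -0.52. P3h2 was called lower in P3 ventricles than in E13.5 hearts, at -3.86 (limma adjusted p = 0.0116), 1 of the 10 beside 0 higher. The call held in 21 of 22 alternatives, but its size hung on the pseudocount, at -4.53 with 0.5 and -1.91 with 8.

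Bnip3 encodes a mitochondrial outer membrane protein that recruits the machinery of mitophagy and promotes cell death, and spans 138890836 to 138909519 of chromosome 7 (minus strand). In ventricles its signal was 385, 516 and 430 in knockout pups, against 340, 376 and 191 in wild-type pups. The atria had 330, 217 and 2054 in knockout pups, against 73.7, 300 and 749 in wild-type pups. At E13.5 the signal was 999, 706, 469 and 839 in knockout embryos, against 525.7, 898, 601 and 748 in wild-type embryos. All 3 knockout ventricles lay above all 3 wild-type ventricles, while the other groups overlapped, and both libraries of the third atrial pair lay above the other 4 atria, which ran from 73.7 to 330.

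The ventricular mean of Bnip3 was 443 ± 66.3 in knockout and 302 ± 97.9 in wild-type pups (SD, n = 3 each). The log2 difference was 0.60 (SE 0.68, limma adjusted p = 1), smaller than its SE in the fit over all groups, whose shared spread for Bnip3 includes the third atrial pair. Without that pair the SE was 0.41 and the limma adjusted p stayed at 1. In atria the log2 difference was 1.05 (SE 0.68, limma adjusted p = 1), with values from 0.07 without the third knockout library to 1.82 without the third wild-type one. The reverse-strand gene Gm45507 overlaps exons of Bnip3 and had 29.6 to 133 in knockout and 56.4 to 135 in wild-type ventricles. No source says that counting used the strand, so reads in the overlap are uncertain.

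By stage Bnip3 averaged 373 ± 108 in ventricles and 723 ± 185 in E13.5 hearts (SD, n = 6 and 8), a log2 difference of -0.97 (SE 0.45, limma adjusted p = 0.199). In atria the mean was 621 ± 738 over 6 libraries and 230 ± 115 over the 4 without the third pair. The log2 difference from E13.5 hearts was -0.93 over all atria (SE 0.45, limma adjusted p = 0.198) and -1.81 without the third pair (SE 0.31, limma adjusted p = 7.82e-04). Leaving that pair out also lowered the spread used for ventricles, where the limma adjusted p became 0.0191. Both stage differences of Bnip3 thus passed the threshold without the third pair and missed it with the pair. In atria the call also appeared when the third knockout library alone was left out (-1.42, limma adjusted p = 0.0236).

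Of 8 mitophagy receptors, 1 was called higher in P3 ventricles and 1 in P3 atria than in E13.5 hearts, and 0 lower in either, with medians of 0.28 and 0.13 beside -0.02 and 0.07 over all genes. It was Pink1, the kinase that marks damaged mitochondria, at 1.15 (limma adjusted p = 1.06e-04) and 0.92 (limma adjusted p = 0.00124). None was called between chambers or in the knockouts.

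Vegfa encodes the chief growth factor of blood vessels and spans 46016993 to 46032369 of chromosome 17 (minus strand). In ventricles its signal was 420, 487 and 421 in knockout pups, against 486, 476 and 401 in wild-type pups. Atrial values were 217, 335 and 295 in knockout pups, against 300, 424 and 183 in wild-type pups. In E13.5 hearts it was 229, 246, 241 and 250.95 in knockout embryos, against 158, 320, 294 and 177 in wild-type embryos. The genotypes overlapped in each tissue, whereas all 6 ventricular libraries, from 401 to 487, lay above all 8 embryonic ones, from 158 to 320. P3 ventricles lay above all E13.5 libraries in 4.05% of all genes.

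The mean of Vegfa was 449 ± 38.7 in P3 ventricles and 239 ± 53.6 in E13.5 hearts (SD, n = 6 and 8). It rose in ventricles by 0.93 on the log2 scale (SE 0.22, limma adjusted p = 0.00718), and by 0.85 to 1.01 when each library was left out in turn, with adjusted p values of 0.00474 to 0.022. The sums used for rescaling include mitochondrially encoded genes, which took 36.3 to 41.3% of ventricular and 19.5 to 22.4% of E13.5 libraries. The call was lost with libraries rescaled to the same sum, where the difference was 0.40 (limma adjusted p = 0.172) and the median of all genes -0.51. It was also lost with only the libraries of 2018, where the difference was 1.08 (limma adjusted p = 0.124) and 1 embryonic pair was left. In atria the difference was 0.27 (SE 0.22, limma adjusted p = 0.478). Ventricles lay above atria of the same pup in 6 of 6 pups, with a log2 difference of 0.67 (SE 0.23, limma adjusted p = 0.217), and 5.21% of genes were higher in the ventricle in 6 of 6 pups. With libraries rescaled to the same sum the log2 difference was 0.09 (limma adjusted p = 0.842). The knockout effects were smaller than their SE, with 95% intervals between -0.73 and 0.69.

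Among 10 ligands and receptors of the VEGF family, 3 were called higher and 0 lower in P3 ventricles than in E13.5 hearts, Vegfa among them, with a median of 0.44 beside -0.02 over all genes. The others were the coreceptor Nrp2 at 1.14 (limma adjusted p = 0.00287) and the main receptor Kdr at 1.04 (limma adjusted p = 0.00223). With libraries rescaled to the same sum 0 were called higher, 1 was called lower, and the median was -0.03. Between chambers 2 were called higher in ventricles and 0 lower, Nrp2 at 1.82 (limma adjusted p = 0.0196) and Kdr at 1.42 (limma adjusted p = 0.027). The call of Nrp2 held in 4 of 20 alternatives and that of Kdr in 7 of 20, and Nrp2 was lost whichever library was left out. Kdr averaged 713 ± 182 in knockout and 1142 ± 245 in wild-type ventricles and 289 ± 144 in knockout and 412 ± 41.6 in wild-type atria (SD, n = 3 each). In P3 atria 1 was called lower than in E13.5 hearts and 0 higher, the lymphatic ligand Vegfc at -1.28 (limma adjusted p = 0.0291), a call that held in 12 of 22 alternatives. None was called in the knockouts. The endothelial marker sums given above for Epas1, lower in knockout than in wild-type ventricles, apply here too, and their part was not tested.

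Ankrd37, at 45996902 to 46005707 of chromosome 8 (minus strand), encodes an ankyrin repeat protein and is a known HIF1 target. In E13.5 hearts its signal was 13.53, 22.4, 6.58 and 38.2 in knockout embryos, against 81.8, 67.4, 62.6 and 29.3 in wild-type embryos. The first 3 knockout embryos lay below all wild-type embryos, and the fourth pair, prepared in 2018, ran the other way. In ventricles it was 75.3, 76.9 and 126 in knockout and 85.7, 59.8 and 90.4 in wild-type pups, and in atria 10.5, 46.7 and 81.3 in knockout and 12.4, 53.4 and 37.8 in wild-type pups. The P3 genotypes overlapped in both tissues.

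The embryonic mean of Ankrd37 was 20.2 ± 13.6 in knockout and 60.3 ± 22.2 in wild-type hearts (SD, n = 4 each), a log2 difference of -1.69 (SE 0.64, unadjusted p = 0.0155, limma adjusted p = 0.986). It ran from -2.07 to -1.28 when each library was left out, and was not called in any alternative. The knockout effect in ventricles minus that in E13.5 hearts was 1.90 (SE 0.98, limma adjusted p = 1), and that in atria minus that in E13.5 hearts was 1.92 (SE 0.98, limma adjusted p = 0.999). These differences share the embryonic libraries. Exons of Ankrd37 overlap those of Ufsp2 on the other strand, whose mean signal over all libraries was 665 beside 53.9 for Ankrd37. Ufsp2 had 639, 509, 756 and 1198 in knockout embryos and 445, 815, 779 and 595 in wild-type embryos, and within litters its difference had the same sign as that of Ankrd37 in 3 of 4 pairs. How many reads of Ankrd37 belong to Ufsp2 is uncertain, and the part of the overlap was not tested.

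By chamber Ankrd37 averaged 85.7 ± 22.4 in ventricles and 40.3 ± 26.7 in atria (SD, n = 6 each). The ventricle was above the atrium in 6 of 6 pups, by ratios of 1.12 to 7.14, and the log2 difference was 1.36 (SE 0.50, limma adjusted p = 0.244). P3 ventricles against E13.5 hearts gave 1.40 (SE 0.49, limma adjusted p = 0.0726), with an adjusted p of 0.0483 without the third atrial pair and 0.0456 without the fourth knockout embryo. With libraries rescaled to the same sum this stage difference fell to 0.88 and the chamber difference to 0.79, and neither was called. In atria the stage difference was smaller than its SE.

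Ndrg1, at 66929318 to 66969640 of chromosome 15 (minus strand, at most 16 exons), encodes a stress-responsive protein of myelin, vesicle traffic and differentiation. In ventricles its signal was 113, 60.9 and 80.4 in knockout and 71.9, 89.7 and 84.2 in wild-type pups. In atria it was 38.9, 59.1 and 119 in knockout and 97.1, 63.7 and 200 in wild-type pups. The E13.5 hearts had 1.26, 85.0, 40.2 and 13.7 in knockout and 29.4, 42.9, 77.5 and 35.3 in wild-type embryos, with an estimated 2 reads in the first knockout embryo. The groups overlapped in each tissue, although, paired by sample number, the knockout lay below its littermate in 3 of 3 atrial and 3 of 4 embryonic pairs. The embryonic log2 difference was -1.25 (SE 0.77, limma adjusted p = 1) and -0.24 without the first knockout embryo. By stage the log2 difference was 1.53 in ventricles (SE 0.59, limma adjusted p = 0.104) and 1.56 in atria (SE 0.59, limma adjusted p = 0.0899). Without the second knockout embryo, the highest of the 8, both passed, at 1.90 (limma adjusted p = 0.0267) and 1.93 (limma adjusted p = 0.0254). Without the first knockout embryo they were 1.03 and 1.06, and neither passed. With libraries rescaled to the same sum the ventricular one was 1.02 and was not called.

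In the NDRG family of 4 genes, which share an alpha/beta hydrolase fold, 2 were called higher and 0 lower in P3 ventricles than in E13.5 hearts. They were Ndrg2 at 1.42 (limma adjusted p = 1.07e-05) and Ndrg4 at 1.01 (limma adjusted p = 8.14e-04), both known from heart and brain. In P3 atria Ndrg2 was called higher at 0.78 (limma adjusted p = 0.00557), 1 of the 4 beside 0 lower. The differences of all 4 were negative in knockout atria and in knockout E13.5 hearts, and none was called.

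Ddit4, at 59949669 to 59951834 of chromosome 10 (minus strand), encodes REDD1, which restrains the growth kinase complex mTORC1 in hypoxia and under glucocorticoids. Its signal was 31.9, 35.2 and 23.5 in knockout ventricles, against 13.2, 31.2 and 32.6 in wild-type ventricles. The atria had 8.42, 25.9 and 44.7 in knockout and 23.4, 11.1 and 44.0 in wild-type pups. At E13.5 the signal was 25.3, 32.5, 32.8 and 29.9 in knockout and 30.4, 51.9, 45.9 and 25.98 in wild-type embryos. All 20 libraries lay between 8.42 and 51.9, an estimated 5 to 70 reads. The knockout effects were smaller than their SE, with 95% intervals between -1.50 and 1.70. The atrial stage difference was -0.57 (SE 0.44, limma adjusted p = 0.449) and -1.05 without the third atrial pair (limma adjusted p = 0.172), which held the 2 highest atrial values. Its paralog Ddit4l was called lower in ventricles than in atria, at -2.61 (limma adjusted p = 0.0456), the only 1 of 11 mTORC1 pathway genes tested, a call that held in 4 of 20 alternatives.

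**Figure D4:**
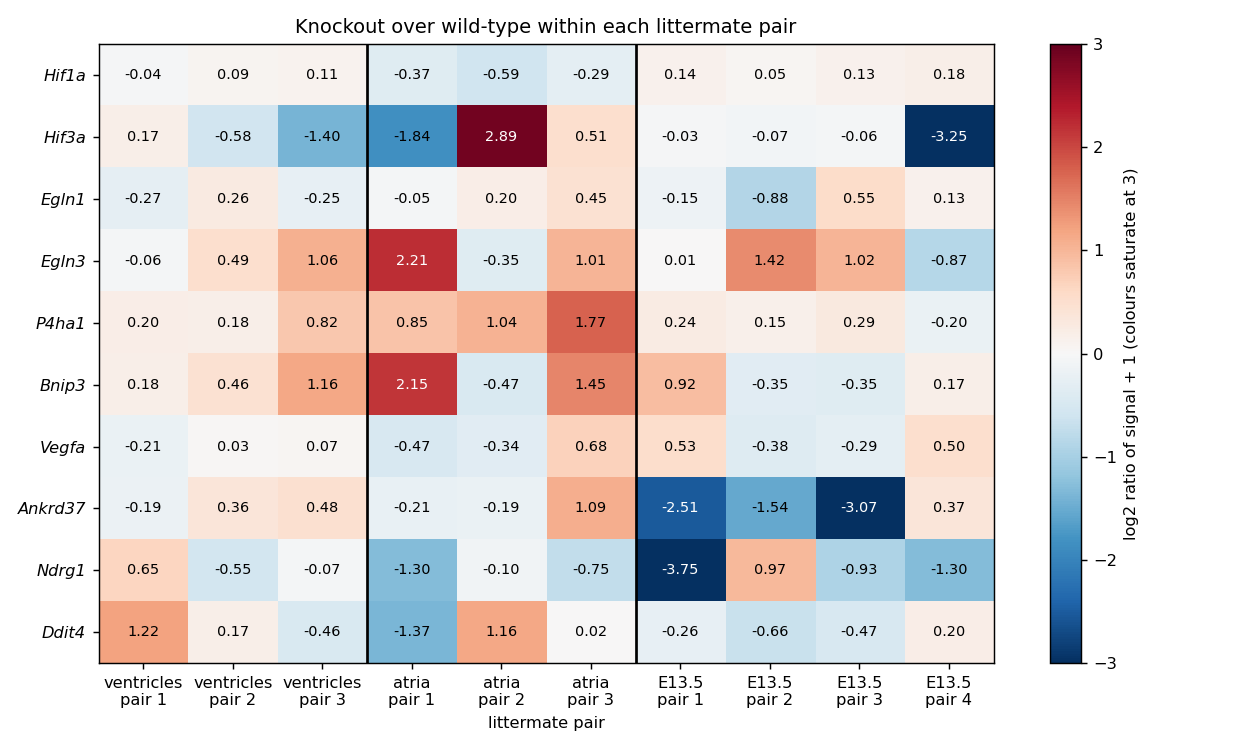
Log2 ratio of signal + 1, knockout over wild-type, within each litter pair (horizontal axis: 3 ventricular, 3 atrial and 4 embryonic pairs) for the 10 genes (vertical axis). P4ha1 is positive in 9 of 10 pairs, Ankrd37 is negative in 3 of 4 embryonic pairs, and Hif3a, Ankrd37 and Ndrg1 show the widest range of ratios.

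The third atrial pair is set apart here for all members. Both of its libraries were above the other 4 atria for 4 members, Hif3a, Bnip3, Ndrg1 and Ddit4, below them for Hif1a, and within or across their range for the other 5. Above the range lay 26.1% of all genes and below it 19.2%. For Bnip3 the pair had 2054 in the knockout and 749 in the wild-type library, against 73.7 to 330 in the other atria. For Ndrg1 it had 119 and 200, against 38.9 to 97.1, and for Ddit4 44.7 and 44.0, against 8.42 to 25.9. The knockout library of the pair was the highest of all 20 for Egln1, Egln3, P4ha1 and Bnip3, and the wild-type one for Ndrg1. The summed signal of 9 atrial muscle markers was 453161 in that knockout library and 84931 to 173714 in the other 5 atrial libraries, and that of erythroid markers was 133134 there and 15591 to 41644 in the others. Their part in the levels of the members was not tested.

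Without the third pair, 0 of the 10 members passed in knockout atria, beside 11 of all genes (4 higher, 7 lower) or 0.0607%. The largest difference there remained that of P4ha1 at 0.95, followed by Egln3 at 0.93 (SE 0.84, limma adjusted p = 0.884) and Bnip3 at 0.84 (SE 0.51, limma adjusted p = 0.752). The log2 difference of Vegfa was -0.40 (SE 0.35, limma adjusted p = 0.873) without the pair and that of Hif1a -0.48 (SE 0.33, limma adjusted p = 0.813). In the comparisons by stage 3 members were called in ventricles, where 15.4% of genes were called, namely Vegfa and Ankrd37 higher and Bnip3 lower. In atria 2 were called, Hif1a and Bnip3, both lower, where 9.03% of genes were called.

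Other HIF target genes were described as 2 lists, the glycolytic and the rest. Of 19 glycolytic targets, 0 were called higher and 5 lower in P3 ventricles than in E13.5 hearts, with a median of -0.24 beside -0.02 over all genes, and 0 higher and 6 lower in P3 atria, with a median of -0.54 beside 0.07. The glucose transporter Slc2a1 had the values -3.09 in ventricles (limma adjusted p = 2.8e-07) and -1.94 in atria (limma adjusted p = 1.4e-04), and the glycolytic enzyme Pgam1 had -1.998 (limma adjusted p = 2.71e-07) and -1.41 (limma adjusted p = 3.41e-05). The lactate exporter Slc16a3 had -3.22 in ventricles (limma adjusted p = 8.02e-04). Without the third pair 14 of the 19 were called lower in atria. In knockout atria 17 of 19 were positive, with a median of 0.50 beside 0, and 0 were called. The smallest p there belonged to Pgam1 at 0.89 (limma adjusted p = 0.625) and Pgk1 at 0.64 (limma adjusted p = 0.899). Without the third pair 15 were positive and the median was 0.28.

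Of 39 other HIF targets tested, which include the responsive members, 7 were called higher and 2 lower in P3 ventricles than in E13.5 hearts, and 8 higher and 2 lower in P3 atria. The lipase inhibitor Angptl4, which fatty acid receptors also induce, had 3.46 in ventricles (limma adjusted p = 4.37e-06) and 2.87 in atria (limma adjusted p = 5.7e-05). Adrenomedullin, Adm, a vasodilator hormone, had 4.12 in atria (limma adjusted p = 3.63e-04), and was lower in ventricles than in atria by a log2 difference of -2.76 (limma adjusted p = 0.0159), the only 1 of the 39 called between chambers. That chamber call held in 7 of 20 alternatives and was lost without the third atrial pair. Endothelin 1, Edn1, a constrictor of vessels, had 2.58 in atria relative to E13.5 hearts (limma adjusted p = 0.00507). The enzyme gene Pfkfb3, which drives glycolysis but was listed among these other targets, had -1.39 in ventricles (limma adjusted p = 0.0183). Fam162a, a HIF-induced mitochondrial protein, had -1.17 in atria (limma adjusted p = 9.9e-04). With libraries rescaled to the same sum, 3 were called higher and 5 lower in ventricles.

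In knockout atria 26 of the 39 were positive, with a median of 0.18 beside 0 over all genes, and 0 were called. Edn1 averaged 599 ± 239 in knockout and 93.5 ± 52.3 in wild-type atria, and Lox, which crosslinks collagen, 1528 ± 121 in knockout and 702 ± 246 in wild-type atria (SD, n = 3 each). The log2 differences were 2.71 (SE 0.87, limma adjusted p = 0.625) and 1.19 (SE 0.34, limma adjusted p = 0.488). In both genes the 3 knockout atria lay above the 3 wild-type atria, from 350 to 826 against 61.9 to 154 for Edn1 and from 1443 to 1667 against 421 to 883 for Lox. Such groups were found for 3.92% of all genes. Edn1 and Lox were named because, members aside, they had the smallest p of the list in this comparison, so their separation adds no support. The marker sums given beside P4ha1 apply to them too.

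The genes whose log2 levels ran most alike to a member over the 20 libraries are given with Pearson's r among 8271 or 8272 genes of at least median level. The libraries share pups, litters and tissues, so that these are descriptions. Bnip3 ran with Ajuba at 0.85, a LIM domain scaffold, with Ldha at 0.85, lactate dehydrogenase A, and with Tpi1 at 0.84, triosephosphate isomerase. Vegfa ran with Hibch at 0.89, an enzyme of valine breakdown, with Fabp4 at 0.88, a fatty acid binding protein, and with Cd36 at 0.88, a fatty acid transporter. Hif1a ran with Fam81a at 0.92, Nlk at 0.91, a kinase, and Msi1 at 0.90, an RNA-binding protein. P4ha1 ran with the intermediate filament gene Synm at 0.82, Bace2 at 0.78 and Gpc4 at 0.78, and Ndrg1 with Rras at 0.84. For the other members the highest values were 0.86 for Hif3a with Cdc25a, 0.81 for Ankrd37 with Mcur1, 0.80 for Egln1 with Atox1, 0.75 for Egln3 with Ddrgk1 and 0.73 for Ddit4 with Aurkaip1.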

How the data were processed

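RNA was profiled in 20 libraries made by SMART-Seq2, per the labels' protocols. Build mm10 and the tools STAR 2.5.1, bcl2fastq 2.2 and DESeq2 appear in the submitters' processing notes, without roles. The authors deposited 1 table of a normalized signal on a linear scale. How reads were counted, whether by strand and on which annotation release, is not given in the sources used here. Each library's median ratio to the genes' geometric means was 1.04, and low values were multiples of 1 step per library, from 0.562 to 2.21, which gave the estimated reads and totals. No molecular identifiers were used, so depth speaks to counting error only, and p-values measure the spread between these animals. All 20 sample columns were used.

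Values were tested as log2(value + 1) with limma 3.58.1 in R 4.3.3, two-sided, on 18125 genes with at least 10 in at least 3 libraries. This scale understates the change of low genes. One fit gave each of 6 groups a mean (14 residual and 6.68 prior degrees of freedom). Chambers, and the knockout effect between chambers, were tested on each pup's difference (4 residual and 4.59 prior). P-values were adjusted by the Benjamini-Hochberg method over all genes. The tests were checked on simulated data. Knockout and wild-type libraries of 1 number share a litter per the labels, so the numbers pair them, and E13.5 replicates 2 and 3 share 1 litter. Deviations from group means correlated at 0.02 to 0.0658 in ventricles, 0.212 to 0.638 in atria and -0.0159 to 0.0159 at E13.5 between same-numbered libraries. The 0.638 belonged to the third atrial pair. Atrial libraries 1 and 2 correlated about as much across numbers, at 0.167 and 0.225, as within them, at 0.212 and 0.255. Alternatives were pseudocounts of 0.5 and 8, no filter, libraries rescaled to the same sum, quantile normalization, each library, the third atrial pair or wild-type pup 2 left out, a replicate block, each tissue alone, a fit that ignores the pups, and the libraries of 2018 alone. The block in 1 fit over 20 libraries was added after the data were seen.

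The members and the gene lists were chosen with earlier results of these data known. Genes named beside the members were, per list and comparison, up to 3 called ones per direction with the largest log2 difference, or up to 2 with the smallest p where none was called, any HIF subunit or regulator, and the 3 genes most correlated with a member. Gene positions and exon lengths came from GENCODE M21 on mm10, and promoters from RefSeq.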

Additional observations from a re-analysis of the deposited data

How the results depend on the processing

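No member was called for the knockout, or for a difference of the knockout effect, under any alternative run. With libraries rescaled to the same sum, 3 members were called in P3 ventricles against E13.5 hearts (Hif1a, Hif3a and P4ha1, all lower, in place of Vegfa), 1 between ventricles and atria (P4ha1), and the stage difference of Egln1 in ventricles turned to -0.17. That rescaling moved the median of all genes to -0.506 in P3 ventricles against E13.5 hearts, where 588 genes were then higher and 3044 lower, to -0.606 between ventricles and atria, with 48 higher and 352 lower, and to 0.121 in P3 atria against E13.5 hearts. Before rescaling the summed signal was 1.23e+07 to 1.41e+07 in ventricular and 8.50e+06 to 9.81e+06 in E13.5 libraries. Of it, mitochondrially encoded genes took 36.3 to 41.3% in ventricular and 19.5 to 22.4% in E13.5 libraries. Without the third atrial pair, 3 members were called in ventricles and 2 in atria against E13.5 hearts. With only the libraries of 2018, 0 were called in either, and P4ha1 in atria turned to -0.041. In the fit over 20 libraries that ignores the pups, with no replicate block, 1 member was called between chambers (P4ha1). Without both libraries of wild-type pup 2, whose knockout littermate was kept, the atrial knockout difference of Hif1a turned to 0.070. The cause of these changes was not tested.

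When each library was left out in turn, 1 to 2 members were called in P3 ventricles and 1 to 2 in P3 atria against E13.5 hearts. The atrial knockout difference of Hif1a ran from -0.91 to 0.070, and the knockout effect of Bnip3 in atria minus that in E13.5 hearts from -0.031 to 1.72. Of the members' log2 differences that were at least 1 SE in size, with that of Bnip3 in knockout ventricles, 750 alternative values kept their direction and side of the threshold, 13 passed it newly, 3 lost it and 6 reversed. Smaller differences were not followed through every alternative, and some changed sign. Without the third pair, Ankrd37 in knockout atria was -0.20, and between chambers Bnip3 was 0.99 and Hif3a 0.84. Without wild-type pup 2, Hif3a in knockout atria was -0.28. Of 36 called differences of listed genes, 9 were called in every alternative.

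The count of all genes called was 5 in knockout atria, 0 with the tissue fitted alone, 0 with the replicate block fitted alone, 30 with the replicate block over 20 libraries, and 2 to 16 with a library left out. The replicate block changed no call of a member: the adjusted p of P4ha1 in atria was 0.0937. Few reads limit Hif3a, Ddit4, Ndrg1, Ankrd37 and Egln3.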
